A study of Rattus norvegicus with 6 samples.

Results

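The genes described here encode subunits of voltage-gated calcium channels, the pores through which membrane depolarisation lets calcium into a cell. They were taken by gene symbol from the deposited count table: Cacna1c, Cacna1d and Cacna1s (L-type pores), Cacna1g and Cacna1h (T-type pores), Cacna2d1 (an alpha2delta subunit), and Cacnb1, Cacnb2 and Cacnb3 (beta subunits). All 9 symbols were present among the 40456 genes of the table. The libraries came from H9c2 (2-1), a rat cell line labelled wild type and derived from embryonic heart tissue, which was kept for 5 days in 1% serum with 1 µM retinoic acid and then transfected by lipid reagent with 25 nM of an antisense locked nucleic acid gapmer for 24 h. A gapmer pairs with an RNA and directs RNase H to cut it. In 3 libraries it was a negative control, and in 3 it was directed against the long non-coding RNA Tug1. The study's title places the experiment in the regulation of calcium uniporter expression and calcium signalling by Tug1. The gapmers are shown in lower case, 5′ to 3′, as given in the labels, since they are the only stated difference between the groups.
Tug1 gapmer: attcagtagacagcta
negative control gapmer: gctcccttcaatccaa

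A voltage-gated calcium channel is built around a pore-forming alpha1 subunit that also carries the voltage sensor. A beta subunit binds it on the inner side of the membrane and an alpha2delta subunit on the outer side, and both raise the number of channels at the surface and shape their gating. In heart cells the L-type pore encoded by Cacna1c carries the calcium current that triggers release from the reticulum through Ryr2. In skeletal muscle the pore encoded by Cacna1s acts mainly as the voltage sensor of the release channel Ryr1, with Cacnb1 as its beta subunit.

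The libraries held between 12978548 and 13544337 counts each. CPM, counts scaled to library size with TMM factors, is the unit of level, and 1 CPM corresponded to 12.9 to 13.8 counts. Tug1 was at 54.6, 51.9 and 55.3 CPM in the control libraries and at 11.9, 11.2 and 12.4 CPM in the knockdown libraries, in the order of replicates 1, 2 and 3 that is kept below, a log2 change (the log2 of the fold change, knockdown over control) of -2.19 (standard error 0.0786, adjusted edgeR p 4.39e-16). The labels call the cells cardiomyocytes. Of 8 cardiomyocyte markers only Actc1 and Tnnt2 had enough counts for a test, and both rose. Over all tested genes, 30.8% were higher at an adjusted edgeR p under 0.05. Myh6, Tnni3, Nppa, Ryr2, Myl7 and Nkx2-5 had at most 4 counts in any library. All 8 skeletal muscle markers were testable and their summed level ran from 896 to 909 CPM in controls and from 1320 to 1409 CPM after knockdown. Fibroblast markers summed to 21937 to 23218 CPM in controls and 18195 to 20210 CPM after knockdown, a sum that is mostly Col1a1. Of the 3 tested, Col1a1 (log2 change -0.23) and Thy1 (-0.40) fell, while Dcn rose (0.57). Endothelial markers stayed under 3.70 CPM in sum. Of the 4 macrophage markers, Ptprc and Adgre1 were at 0, Cd68 rose from a mean of 3.59 to 7.64 CPM (adjusted edgeR p 2.41e-05), and Csf1r, at 7.64 and 8.81 CPM, did not pass (adjusted edgeR p 0.171). The macrophage sum ran from 10.6 to 12.1 CPM in controls and from 15.3 to 17.2 CPM after knockdown. Nothing in the labels says that the libraries came from separate cultures, so p-values measure the spread between these libraries, which may be technical.

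Of the 9 channel genes, 7 had enough counts for a test, and 5 of these rose and 1 fell after Tug1 knockdown at an adjusted p under 0.05. Across all 14216 tested genes, 61.7% passed that threshold, 30.8% as higher and 30.9% as lower. The median log2 change of the 7 tested members was 0.49, against 0.00 for all tested genes. Control and knockdown libraries did not overlap for 6 of the 7, against 65.6% of all tested genes. The pore genes Cacna1s, Cacna1c and Cacna1g and the alpha2delta gene Cacna2d1 were higher, the beta subunit genes moved apart, and the pore genes Cacna1d and Cacna1h were at or under the limit of detection. In RNA from whole cultures, fewer cells of a type and less RNA per cell cannot be told apart.

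**Figure D1:**
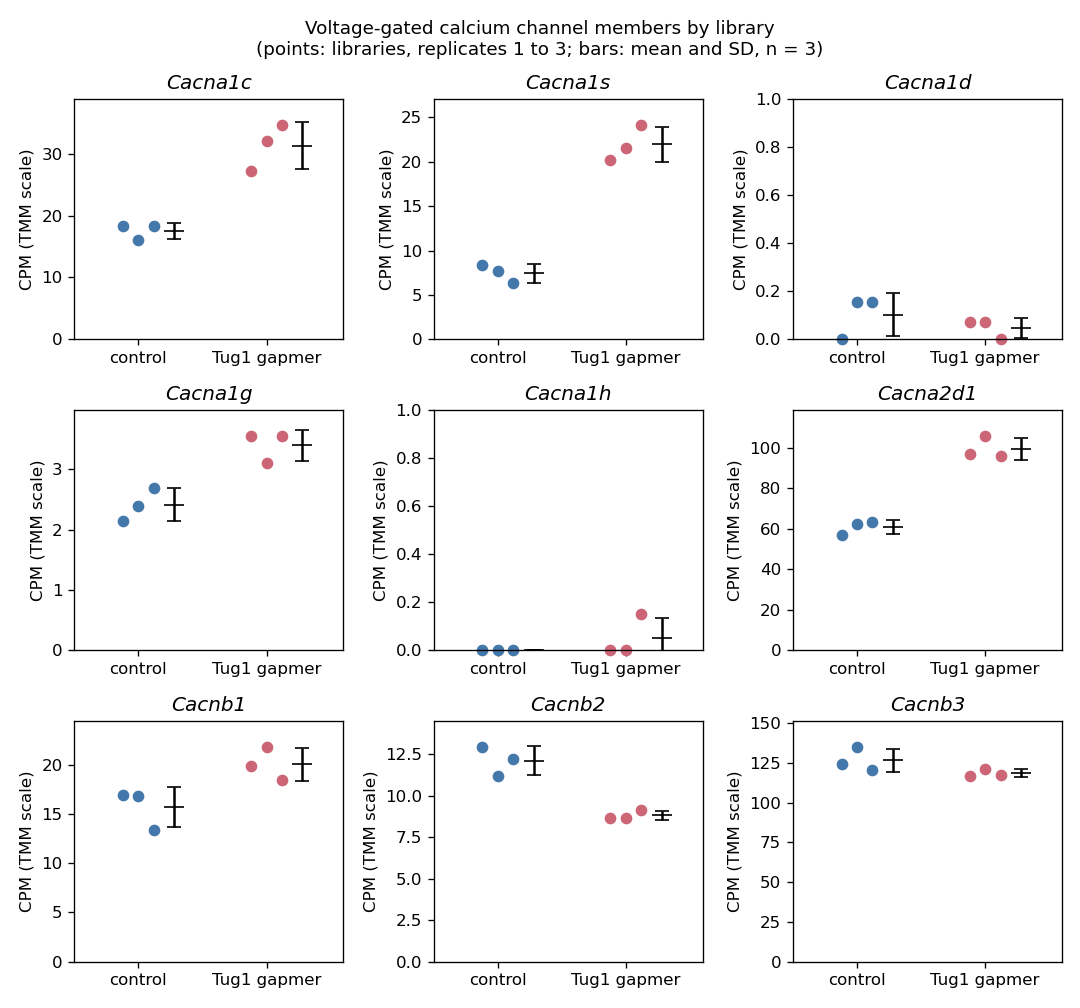
Level of each of the 9 channel genes in the 6 libraries, in CPM on the TMM scale, with a separate y axis for each gene that starts at 0. Points are libraries (control in blue, Tug1 gapmer in red) and bars are the mean and SD (n = 3). The 3 knockdown points lie above the 3 control points for Cacna1c, Cacna1s, Cacna1g, Cacna2d1 and Cacnb1, below them for Cacnb2, and overlap them for Cacnb3; Cacna1d and Cacna1h stay at or near 0.

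Cacna1s, which encodes the skeletal muscle L-type pore alpha1S, rose most among the members. Its level was 8.42, 7.65 and 6.31 CPM in the control libraries and 20.2, 21.6 and 24.1 CPM in the knockdown libraries. Every knockdown library was above every control library. The means were 7.46 ± 1.07 and 22.0 ± 2.00 CPM (SD, n = 3), for a log2 change of 1.55 (standard error 0.116, adjusted edgeR p 8.41e-11). Skeletal muscle markers moved with this gene: Myog, a transcription factor of muscle differentiation, was at a log2 change of 0.82, and the embryonic myosin gene Myh3 at 0.64, while Myod1, a factor acting earlier in the same lineage, was at -0.32. Of the 8 markers, 6 rose and 1 fell, beside 30.8% higher and 30.9% lower over the 14216 tested genes. Their part in the rise of Cacna1s was not tested.

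Cacna1c, which encodes the cardiac and smooth muscle L-type pore alpha1C, was at 18.3, 16.1 and 18.3 CPM in the control libraries and at 27.1, 32.0 and 34.6 CPM in the knockdown libraries. The groups did not overlap, and the spread among knockdown libraries was wider than among controls. The means were 17.6 ± 1.29 and 31.2 ± 3.79 CPM (SD, n = 3), for a log2 change of 0.83 (standard error 0.0943, adjusted edgeR p 7.78e-08). Cacna1c spans 621 kb of genome, longer than 99.5% of tested genes, and longer genes tended to be higher after knockdown. With an offset that removed the trend with gene length, its log2 change was 0.39 (standard error 0.0884, adjusted edgeR p 0.000635), while that of Cacna1s, which spans 70.2 kb, was 1.42 (standard error 0.116). Markers of smooth muscle, which also uses Cacna1c, summed to 889 to 989 CPM in controls and 1027 to 1187 CPM after knockdown. Of the 4 tested, 2 were higher (Myh11 and Acta2), while Cnn1 and Tagln were not past the threshold. Over all tested genes, 30.8% were higher and 61.7% passed in either direction. Of the cardiomyocyte markers, Actc1 rose from 9.21 ± 0.410 to 18.0 ± 1.80 CPM (SD, n = 3), for a log2 change of 0.97, and Tnnt2 rose by 0.24 (adjusted edgeR p 7.45e-08 and 0.000291). The 8 cardiomyocyte markers summed to 344 to 379 CPM in controls and 406 to 457 CPM after knockdown. That sum is mostly Tnnt2, at means of 348 and 410 CPM, and 6 of the 8 markers were too low for a test. The part of these markers in the change of Cacna1c was not tested.

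Cacna1d, which encodes the L-type pore alpha1D of pacemaker and endocrine cells, had 0, 2 and 2 counts in the control libraries and 1, 1 and 0 in the knockdown libraries. All 6 libraries lay under 3 counts, the limit that a count of 0 allows, which corresponded to 0.217 to 0.232 CPM and covers counting error only. No fold change is given, and a difference was not detectable at this depth.

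The promoter windows of the L-type pore genes that rose, and of Cacna2d1, which rose with them, are shown with any E-box in capitals. An E-box is the six-letter sequence CANNTG bound by basic helix-loop-helix factors such as those of the MyoD family, and it was searched on both strands. The windows run from 250 bases before to 50 after the annotated start and come from RefSeq (build GRCr8), whose table held a window for 6 of the 9 members. They lie at chr13:50045418-50045717, plus strand, for Cacna1s, at chr4:154051699-154051998, minus strand, for Cacna1c, and at chr4:20330098-20330397, minus strand, for the first of 3 annotated starts of Cacna2d1.
Cacna1s: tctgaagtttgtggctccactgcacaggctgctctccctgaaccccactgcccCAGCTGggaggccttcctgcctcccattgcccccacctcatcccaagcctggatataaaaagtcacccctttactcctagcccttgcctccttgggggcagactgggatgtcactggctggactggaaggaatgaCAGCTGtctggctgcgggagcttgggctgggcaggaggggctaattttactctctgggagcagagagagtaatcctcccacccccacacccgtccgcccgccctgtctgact
Cacna1c: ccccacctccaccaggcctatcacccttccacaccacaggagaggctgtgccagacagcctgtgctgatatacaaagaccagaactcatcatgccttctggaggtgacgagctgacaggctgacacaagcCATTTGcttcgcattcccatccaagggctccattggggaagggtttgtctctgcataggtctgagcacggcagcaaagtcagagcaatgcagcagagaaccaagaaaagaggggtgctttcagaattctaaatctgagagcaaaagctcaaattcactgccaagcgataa
Cacna2d1: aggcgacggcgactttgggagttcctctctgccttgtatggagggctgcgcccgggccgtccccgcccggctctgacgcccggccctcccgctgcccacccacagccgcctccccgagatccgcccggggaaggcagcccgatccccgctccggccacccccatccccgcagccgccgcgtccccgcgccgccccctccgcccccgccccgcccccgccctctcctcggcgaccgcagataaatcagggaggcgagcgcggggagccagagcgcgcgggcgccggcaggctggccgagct

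The Cacna1s window held 2 E-boxes, both of the form CAGCTG, beginning 197 and 62 bases before the start. One CAGCTG or more was found in 15.1% of 33469 annotated windows of 300 bases, and 2 or more in 1.69%. CAGCTG is its own reverse complement and is counted within CANNTG, which 72.1% of windows held. For CANNTG of any form, 38.6% of windows held 2 or more. The Cacna1c window held 1 E-box of another form, and none of the 3 Cacna2d1 windows held one. The Cacna1s window also held 1 TATAAA, found in 14.2% of windows, and the Cacna1c window none. GGGCGG, a GC box, occurred 7 times in the first Cacna2d1 window, 2 times in that of Cacna1s and 0 times in that of Cacna1c, and 33.1% of windows held at least 1. GC content was 60.3% for Cacna1s, 51.7% for Cacna1c and 78.3% for Cacna2d1, against a median of 51.7% over all windows. The MEF2 motif was in none of the 9 member windows, and 3.29% of all windows held it. Such matches describe letters in a window, and binding was not measured.

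The difference in change between the L-type pores was examined as a ratio within each library, which does not depend on library size. The log2 ratio of Cacna1s to Cacna1c counts was -1.12, -1.07 and -1.54 in the control libraries and -0.43, -0.57 and -0.52 in the knockdown libraries. All knockdown libraries had the higher ratio. The mean ratio was higher after knockdown by 0.74 on the log2 scale (exact permutation test over libraries, two-sided, p = 0.1, n = 3 per group), and 0.1 is the smallest p that 3 against 3 libraries can give. Cacna1s made up 31.5%, 32.0% and 25.5% of the counts of the L-type pore genes in controls and 42.6%, 40.2% and 41.1% after knockdown. The mean share went from 29.7% ± 3.65 to 41.3% ± 1.20 (SD, n = 3; exact permutation test, p = 0.1). Control replicate 3 had the lowest share and ratio, and without it the ratio differed by 0.59 between the groups. These shares are of counts, not scaled to transcript length, and so compare libraries rather than genes. With Benjamini-Hochberg adjustment over the 3 subunit balances examined, the exact permutation p of both was 0.15. Since Cacna1d had at most 2 counts in any library, the share follows almost wholly from the ratio, and they are not separate results.

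**Figure D2:**
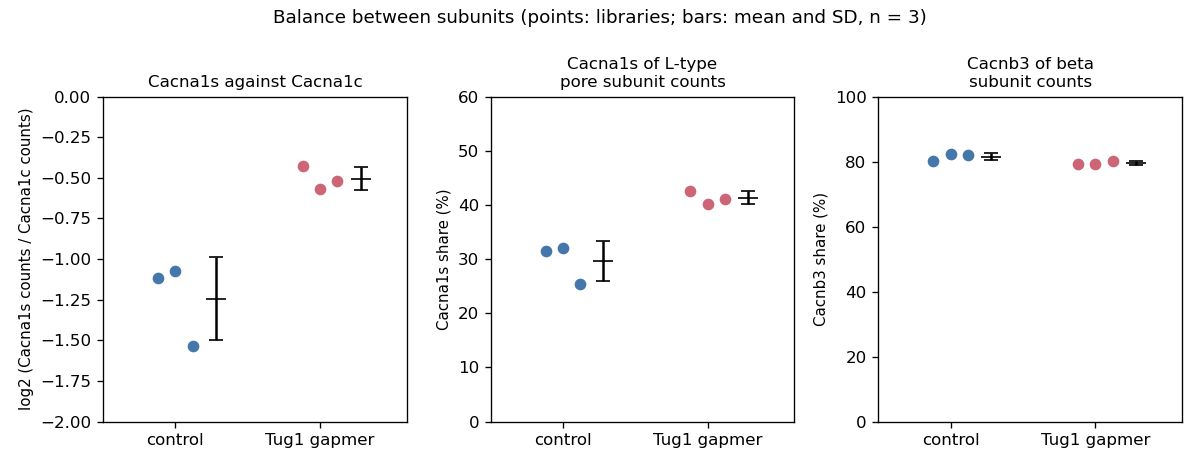
Balance between subunits in each library: the log2 ratio of Cacna1s to Cacna1c counts (left), the share of Cacna1s in the counts of Cacna1c, Cacna1d and Cacna1s (middle, %), and the share of Cacnb3 in the counts of Cacnb1 to Cacnb4 (right, %). Points are libraries and bars are the mean and SD (n = 3). Both Cacna1s measures are higher in all knockdown libraries, with share means of 29.7% and 41.3%, while the Cacnb3 shares of the groups overlap and all lie between 79.2% and 82.2%.

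Among the T-type pores, which open at more negative voltages and are known in embryonic heart and pacemaker cells, Cacna1g was low and Cacna1h was near 0. Cacna1g, which encodes alpha1G, had 28, 31 and 35 counts in the control libraries and 49, 42 and 47 in the knockdown libraries. Those counts correspond to 2.14, 2.40 and 2.70 CPM and to 3.55, 3.10 and 3.54 CPM. The groups did not overlap, but the gap between the highest control and the lowest knockdown library was small. The log2 change was 0.49 (standard error 0.212, adjusted edgeR p 0.0483), which is just past the threshold. The call was lost in 12 of 16 alternatives, whose adjusted p ran from 0.0297 to 0.156, including every fit that left out a single library except knockdown replicate 2. Cacna1h, which encodes alpha1H, had 0 counts in 5 libraries and 2 counts in knockdown replicate 3, at or under the detection limit throughout.

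Cacna2d1 encodes the alpha2delta subunit of cardiac and skeletal L-type channels and the binding protein of gabapentin. It was at 56.7, 62.2 and 63.2 CPM in the control libraries and at 96.8, 106 and 95.8 CPM in the knockdown libraries. The groups were far apart relative to their spread. The means were 60.7 ± 3.48 and 99.5 ± 5.47 CPM (SD, n = 3), for a log2 change of 0.71 (standard error 0.0599, adjusted edgeR p 6.01e-10). Cacna2d1 is also a long gene, at 428 kb, and with the length offset its log2 change was 0.31 (standard error 0.0614, adjusted edgeR p 0.000163).

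The beta subunit genes did not move together. Cacnb1, whose product is the beta subunit of the skeletal muscle channel, was at 17.0, 16.8 and 13.4 CPM in controls and at 19.9, 21.9 and 18.5 CPM after knockdown. The knockdown libraries were all higher, with the lowest of them close to the highest control. The log2 change was 0.35 (standard error 0.103, adjusted edgeR p 0.00498). The call was kept in all 16 alternatives, but without control replicate 3 the log2 change was 0.25 and close to the threshold (adjusted edgeR p 0.0424). In the GRCr8 gene table Cacnb1 overlaps the ribosomal protein gene Rpl19 by 656 bases. Rpl19 was far more abundant and moved the other way, from a mean of 893 to 670 CPM, and how reads in the shared stretch were counted is not given in the sources used here.

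Cacnb2, whose product is the main beta subunit of the heart, was the only member that fell. It was at 12.9, 11.2 and 12.2 CPM in controls and at 8.68, 8.64 and 9.12 CPM after knockdown. The knockdown libraries were closely spaced and all lay below the controls. The means were 12.1 ± 0.873 and 8.82 ± 0.266 CPM (SD, n = 3), for a log2 change of -0.46 (standard error 0.116, adjusted edgeR p 0.00152). Cacnb2 spans 345 kb, and with the length offset its log2 change was -0.84 (standard error 0.113, adjusted edgeR p 1.12e-06). Its RefSeq windows, at chr17:82472965-82473264, plus strand, and chr17:82596542-82596841, plus strand, belong to separate annotated starts, which the gene-level counts do not tell apart. They are shown because Cacnb2 moved against the other called members, and neither holds an E-box, so no letter is in capitals.
Cacnb2, first start: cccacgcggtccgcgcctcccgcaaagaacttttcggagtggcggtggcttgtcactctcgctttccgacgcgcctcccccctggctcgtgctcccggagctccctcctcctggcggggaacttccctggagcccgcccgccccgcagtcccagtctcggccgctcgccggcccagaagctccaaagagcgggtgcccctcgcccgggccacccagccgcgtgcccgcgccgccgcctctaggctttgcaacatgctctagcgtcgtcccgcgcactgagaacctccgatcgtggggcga
Cacnb2, second start: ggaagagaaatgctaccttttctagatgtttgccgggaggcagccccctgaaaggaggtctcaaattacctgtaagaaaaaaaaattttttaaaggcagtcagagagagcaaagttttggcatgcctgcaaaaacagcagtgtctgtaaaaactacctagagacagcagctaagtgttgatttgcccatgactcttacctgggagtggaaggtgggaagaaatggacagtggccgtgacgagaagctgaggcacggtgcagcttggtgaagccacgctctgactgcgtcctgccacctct
The first window has a GC content of 71.7% and 2 GGGCGG boxes, and the second has 48.7% and 0.

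Cacnb3, whose product is a beta subunit of neurons and smooth muscle, was at 124, 135 and 121 CPM in controls and at 117, 121 and 118 CPM after knockdown. The groups overlapped. The means were 127 ± 7.36 and 119 ± 2.45 CPM (SD, n = 3), for a log2 change of -0.09 (standard error 0.0530, adjusted edgeR p 0.127) with a 95% interval from -0.20 to 0.02. The Cacnb3 window in RefSeq held 2 E-boxes, beginning 181 and 60 bases before the start, and the one at 60 was a CAGCTG. The GRCr8 table places Cacnb3 wholly inside the annotated span of the tubulin gene Tuba1c on the same strand. Tuba1c went from a mean of 282 to 151 CPM, so the level of Cacnb3 is uncertain where reads could be assigned to either gene. Cacnb3 made up 80.2%, 82.2% and 82.1% of beta subunit counts in controls and 79.4%, 79.2% and 80.3% after knockdown. The groups overlapped only in that knockdown replicate 3 lay just above control replicate 1. The difference in mean share, knockdown minus control, was -1.94 percentage points (exact permutation test, two-sided, p = 0.2, n = 3 per group, adjusted p 0.2).

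The other 17 genes of the voltage-gated calcium channel family were compared in the same fit. Of these, 8 were tested, 4 rose and 3 fell, against the same 30.8% higher and 30.9% lower among all tested genes. Their median log2 change was 0.58. With the length offset, 2 were called higher and 3 lower, in a fit that called 8128 of 13084 tested genes, 48.8% of these higher. Cacna1i, which encodes the T-type pore alpha1I, had 35, 39 and 54 counts in controls and 89, 103 and 88 after knockdown. Its log2 change was 1.07 (standard error 0.181, adjusted edgeR p 2.10e-05), and the groups did not overlap. Cacna1a, which encodes the P/Q-type pore of nerve terminals, rose from 3.85 ± 0.444 to 6.22 ± 1.01 CPM (SD, n = 3), for a log2 change of 0.69, but with the length offset its value of 0.32 was not past the threshold (adjusted edgeR p 0.109, range over alternatives 0.000340 to 0.130). Neuronal markers were low, with Rbfox3 and Snap25 at no more than 4 counts in any library. The 5 markers summed to 17.8 to 20.4 CPM in controls and 7.75 to 8.90 CPM after knockdown. In controls that sum is mostly Tubb3, which went from a mean of 15.7 to 4.04 CPM. Of the 3 neuronal markers tested, Tubb3 fell (-1.96), while Syn1 (0.40) and Syt1 (0.49) had positive values that did not pass (adjusted edgeR p 0.184 and 0.221). Their part in the change of Cacna1a was not tested. The R-type pore gene Cacna1e had 10 to 17 counts in controls and 17 to 24 after knockdown and did not pass (log2 change 0.48, standard error 0.314, adjusted edgeR p 0.196).

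The alpha2delta family was split. Cacna2d2 had 257, 238 and 219 counts in controls and 165, 151 and 142 after knockdown. All knockdown libraries lay below the controls, and the log2 change was -0.70 (standard error 0.102, adjusted edgeR p 3.11e-06). Cacna2d4, best known from photoreceptors, was at 123, 130 and 134 CPM in controls and at 104, 110 and 119 CPM after knockdown. It fell by 0.22 on the log2 scale (standard error 0.0559, adjusted edgeR p 0.00195), and by 0.44 with the length offset. In the GRCr8 table Cacna2d4 overlaps Adipor2 by 1930 bases, and Adipor2 went from a mean of 183 to 149 CPM. Cacna2d4 also shares 22225 bases with Lrtm2, which went from a mean of 1.26 to 2.36 CPM.

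Of the remaining beta and gamma subunits, Cacng6, a gamma subunit known from skeletal muscle, rose from 5.85 ± 0.693 to 10.3 ± 1.80 CPM (SD, n = 3), for a log2 change of 0.81 (standard error 0.150, adjusted edgeR p 6.55e-05). Cacng1, the gamma subunit of the skeletal muscle channel, had 98, 129 and 148 counts in controls and 105, 93 and 70 after knockdown. It fell by 0.54 on the log2 scale (standard error 0.161, adjusted edgeR p 0.00536) although the groups overlapped, and the call was lost without control replicate 3 (adjusted edgeR p 0.0547, range over alternatives 0.000296 to 0.0547). Cacnb4 had 9, 15 and 8 counts in controls and 25, 20 and 17 after knockdown, a log2 change of 0.89 (standard error 0.337, adjusted edgeR p 0.0264). Its call was lost without control replicate 1, control replicate 3 or knockdown replicate 1 (0.0970, 0.117 and 0.11), with DESeq2 (0.0949) and with the length offset (0.177). Cacng3, Cacng5 and Cacng8 were at 0 in all libraries, and Cacna1b, Cacna1f, Cacna2d3, Cacng2, Cacng4 and Cacng7 had at most 5 counts in any library.

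**Figure D3:**
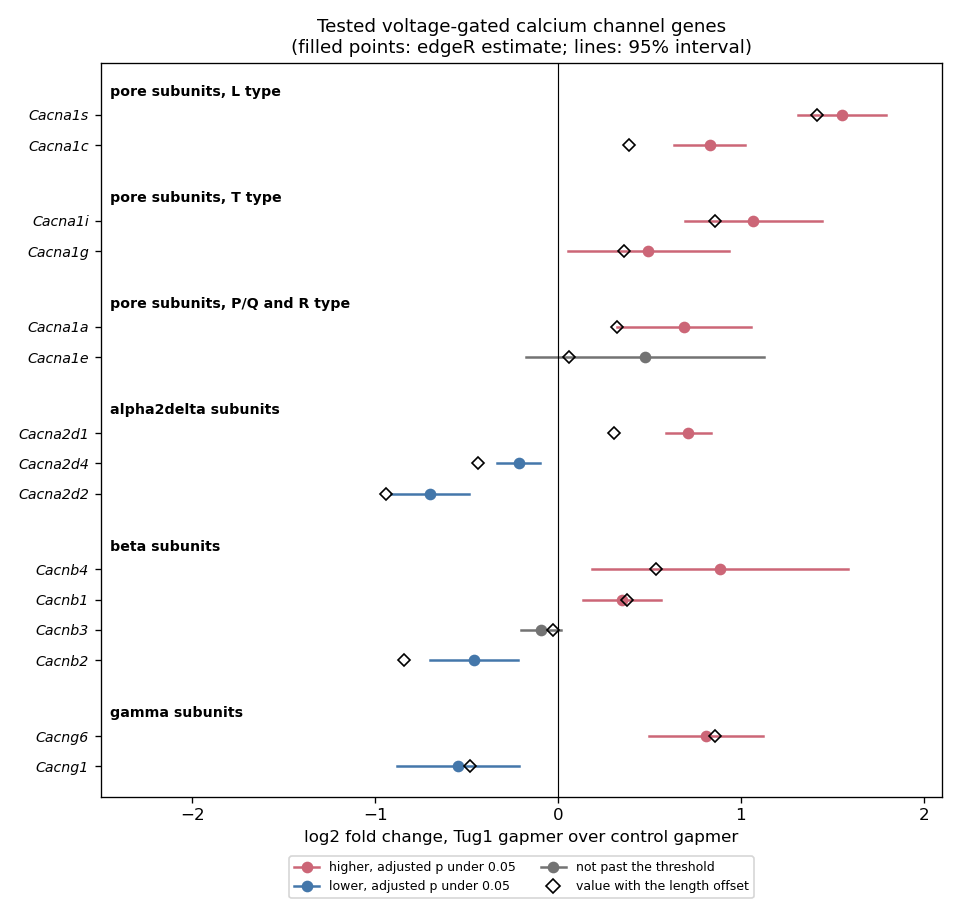
Log2 change (Tug1 gapmer over control gapmer, x axis) of the 15 tested genes of the voltage-gated calcium channel family, grouped by subunit class. Filled points are edgeR estimates with 95% intervals, coloured by call, and open diamonds are the values with the length offset. Cacna1s has the highest estimate at 1.55 and Cacna2d2 the lowest at -0.70; the diamonds of Cacna1c and Cacna2d1 sit closer to 0, and those of Cacnb2, Cacna2d2 and Cacna2d4 further below it.

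A further 31 genes for proteins that bind, place or modify these channels were compared, in 4 lists. Of the 27 tested, 14 rose and 4 fell, with a median log2 change of 0.19. Over all tested genes, 30.8% were higher and 30.9% lower, 61.7% in either direction. Among 8 partners of the skeletal triad, the junction at which Cacna1s meets Ryr1, 7 were tested, 6 rose and 0 fell (median log2 change 0.53; 30.8% higher and 30.9% lower over all tested genes), while Casq1 at 0.07 did not pass. Ryr1, the release channel itself, was at a log2 change of 0.85, the counter-ion channel gene Tmem38a at 0.61, the calcium pump gene Atp2a1 at 0.70 and the junctional gene Jsrp1 at 0.32. Trdn, for triadin, was at 0.53 and Jph2, for a junctophilin, at 0.14. With the length offset neither Trdn (0.12, adjusted edgeR p 0.501) nor Jph2 (0.01, adjusted edgeR p 0.854) passed, with ranges over alternatives of 0.00168 to 0.517 and 0.00416 to 0.854. The call on Jph2 was also lost in turn without control replicate 2, control replicate 3, knockdown replicate 1 and knockdown replicate 2. Jph1 had at most 3 counts in any library.

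Among 10 anchoring and traffic genes, 9 were tested, 4 rose and 2 fell, beside 61.7% called over all tested genes. Stac3, which is needed for Cacna1s channels to work in skeletal muscle, had 62, 69 and 75 counts in controls and 190, 131 and 143 after knockdown, a log2 change of 1.11 (standard error 0.151, adjusted edgeR p 1.13e-06). Its relative Stac2 moved the other way, from 34, 35 and 30 counts to 18, 18 and 14, a log2 change of -1.04 (standard error 0.264, adjusted edgeR p 0.00158). Bin1, which shapes the T-tubule membrane and brings L-type channels to it, rose from 73.3 ± 1.15 to 157 ± 4.02 CPM (SD, n = 3), for a log2 change of 1.10 (standard error 0.0513, adjusted edgeR p 3.90e-14). The muscle caveolin gene Cav3 (0.45) and the ubiquitin ligase gene Nedd4l (0.75, and 0.37 with the length offset) were higher. The kinase anchor gene Akap5 (-0.48) was lower, though not without control replicate 3 (adjusted edgeR p 0.0871, range over alternatives 0.00221 to 0.0871).

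RGK proteins are small GTP-binding proteins that inhibit these channels through the beta subunit. Of the 4 genes, 3 were tested and 2 changed, in opposite directions, beside 61.7% called over all tested genes. Rrad went from 106 ± 7.29 to 122 ± 5.54 CPM (SD, n = 3), for a log2 change of 0.20 (0.38 with the length offset), and Gem went from 12.4 ± 1.29 to 8.19 ± 0.704 CPM (SD, n = 3), for a log2 change of -0.59. Rem2 (-0.22, adjusted edgeR p 0.277) did not pass.

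Adrenergic and kinase genes bear on the channel because protein kinase A raises L-type current on adrenergic stimulation. Of 9 genes, 8 were tested, 3 rose and 1 fell, beside 30.8% higher and 30.9% lower over all tested genes. The kinase A catalytic genes Prkacb (0.83) and Prkaca (0.19) and the CaM kinase gene Camk2g (0.94) were higher. The regulatory subunit genes Prkar1a, Prkar2a and Prkar2b and the kinase gene Camk2d were within 0.11 of 0 on the log2 scale and did not pass. With the length offset Camk2d was at -0.38 (adjusted edgeR p 6.57e-06) and Prkar2a at -0.24 (adjusted edgeR p 0.000693), both past the threshold, with ranges over alternatives of 6.57e-06 to 0.957 and 0.000693 to 0.408. Prkar2a also passed, as lower, without control replicate 1 (adjusted edgeR p 0.0331).

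**Figure D4:**
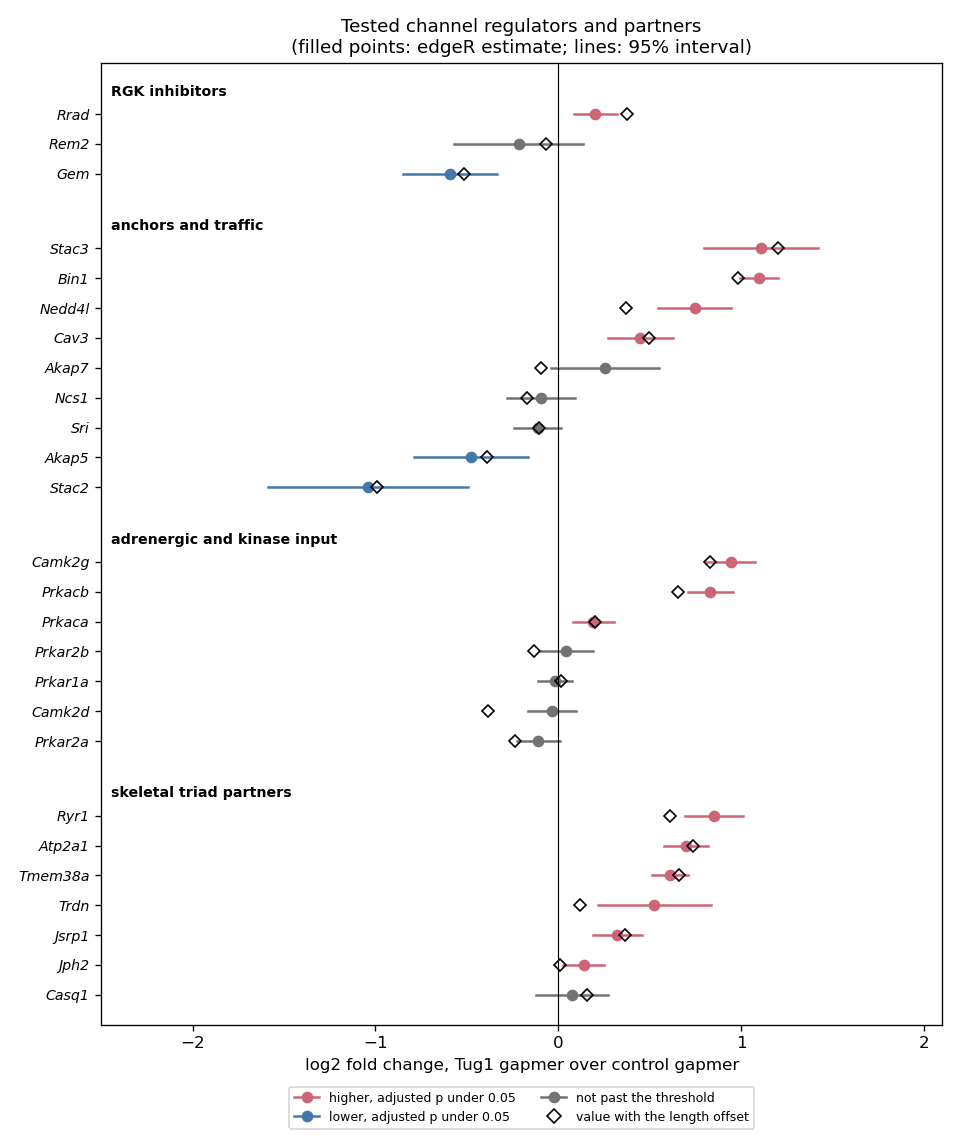
Log2 change (Tug1 gapmer over control gapmer, x axis) of 26 tested regulators and partners of the channels, in 4 lists. Filled points are edgeR estimates with 95% intervals, coloured by call, and open diamonds are the values with the length offset. Among the genes drawn, Stac3 and Bin1 have the highest estimates, at 1.11 and 1.10, and Stac2 the lowest at -1.04; of the 7 triad genes, 6 are past the threshold on the right of 0.

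Gene length was examined because several of these genes are among the longest tested. The median log2 change rose from -0.21 in the decile of tested genes with the shortest genomic span to 0.33 in the decile with the longest, which starts at 118.9 kb. Among those longest genes, 56.1% were called higher and 11.8% lower. Cacna1c, Cacna2d1 and Cacnb2 belong to that group. Cacna1c and Cacna2d1 lay above its median and Cacnb2 lay below 0. Cacna1s and Cacna1g belong to the next group, with a median of 0.18, Cacnb1 to a group with a median of -0.04 and Cacnb3 to one with -0.05. With the length offset, the direction of all 7 tested members was as in the fit without it, and 4 were called higher and 1 lower. In the fit with the offset, 8128 of 13084 tested genes were called, 48.8% of these higher. What underlies the trend with length was not tested.

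**Figure D5:**
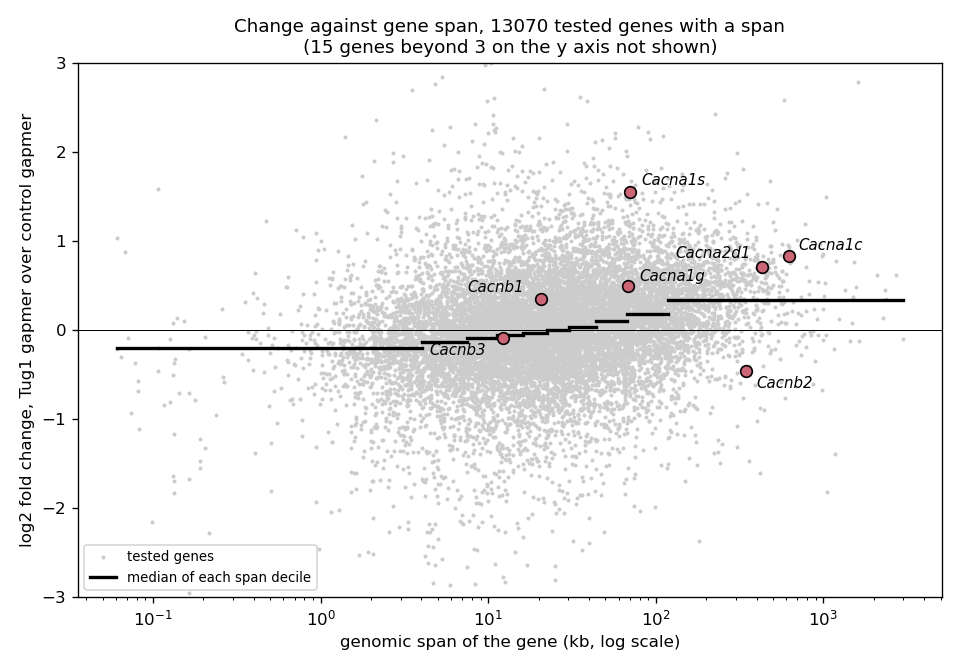
Log2 change (y axis, Tug1 gapmer over control gapmer) against genomic span in kb (x axis, log scale) for 13070 of the 13084 tested genes with a span in the GRCr8 gene table. The rest had at most 3 counts in every library of a group, so no fold change is given. The medians include them. Grey points are genes, black bars are the medians of equal groups by span, red points are the 7 tested members, and 15 genes beyond 3 in either direction are not shown. Cacna1s lies far above the bar of its span group, Cacna1c and Cacna2d1 lie above the last bar at 0.33, and Cacnb2 lies below 0.

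Of the alpha1 members, Cacna1c had the highest mean count, and its pattern over the 6 libraries was closest to those of Vgll4 (Pearson r of log2 CPM 0.998), Dnajc27 (0.996) and Dcaf17 (0.996) among 9078 genes with a symbol and a mean of at least 10 CPM. The likeness rests on 6 libraries in 2 groups, and 1048 of these genes had an r above 0.95. Vgll4 was at a log2 change of 0.58, Dnajc27 at 0.33 and Dcaf17 at 0.35.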

How the data were processed

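RNA was sequenced after poly-A selection from 3 control and 3 Tug1 gapmer libraries, which per the labels' protocols were stranded and made from 500 ng of RNA with an integrity number of at least 9. The deposited values are whole-number counts for each gene symbol and library, neither scaled nor pooled, as the values show. FastQC 0.11.7, fastp 0.14.1 and STAR 2.5 are named per the submitters' processing notes. The counter, genome build, annotation, strand setting and treatment of shared reads are not given in the sources used here. The table has 0 columns outside the 6 libraries.

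The counts were fitted with edgeR 4.0.16 (R 4.3.3): expression filter (minimum count 10, minimum total 15), TMM scaling, and a two-sided quasi-likelihood test (prior count 0.125) of knockdown against control without a block, with Benjamini-Hochberg adjustment over 14216 genes and a threshold of 0.05. The script was tested on simulated counts. The standard error is the log2 fold change divided by the square root of F, and intervals are 95%. Ratios and shares within libraries were compared by exact permutation over libraries. They had been planned per coding length, but no transcript lengths were used here, so they are ratios of counts and levels are not compared between genes. Genomic spans, overlaps and promoter windows come from RefSeq tables of GRCr8. Names matched for 30071 genes, and 92.0% of tested genes had a span.

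The members, lists, tests and alternatives were chosen with earlier results of these data known. All members are named, as are genes of the other lists past the threshold. A gene that met this rule is counted but not reported here by name. The remaining listed genes are given as counts, and those also named with their values were chosen after these were seen. The 3 genes most like Cacna1c are those with the highest correlation. Alternatives were DESeq2 size factors, library totals, DESeq2 1.42.0, limma-voom (limma 3.58.1, prior count 0.5), other filters (1 count, mean 1 CPM), a threshold of 0.01, a replicate block, a length offset (lowess span 0.3) with and without the block, and leaving out each library.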

Additional observations from a re-analysis of the deposited data

How the results depend on the processing

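Over 16 alternatives, the 7 tested members kept the sign of their log2 fold change, and of 112 combinations of member and alternative 100 kept their side of the threshold, while 12, all for Cacna1g, lost it. Between 5 and 6 members were called, and the values ran from 1.42 to 1.65 for Cacna1s, 0.38 to 0.92 for Cacna1c, 0.31 to 0.76 for Cacna2d1, 0.25 to 0.41 for Cacnb1, -0.84 to -0.41 for Cacnb2 and -0.13 to -0.03 for Cacnb3. The length offset, alone or with the replicate block, gave the lowest values for Cacna1s, Cacna1c, Cacna1g, Cacna2d1 and Cacnb2. Other subunit genes called numbered 5 to 7, and regulators and partners 16 to 19. The count over all genes ran from 7353 to 8987. Scaling by library totals alone raised the share of called genes that were higher from 50.0% to 55.8%, with 5 members higher and 1 lower as before. Replicate numbers did not pair the libraries (correlations of deviations -0.00531, 0.0298 and 0.0270), and 4 of 6 libraries correlated best with their own number. With the replicate block 8848 genes were called, and of the members Cacna1g lost its call (0.49, edgeR adjusted p 0.0566). Leaving out a library moved Tug1 between -2.22 and -2.15, the Cacna1s to Cacna1c difference between 0.59 and 0.82, the Cacna1s share difference between 9.52 and 12.8 percentage points and that of Cacnb3 between -2.59 and -1.60. Length scaling of the ratio and shares was not run. Depth limits Cacna1d and Cacna1h, at or under 3 counts, and Cacna1g at 28 to 49 counts.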
